A study of Rattus norvegicus with 4 samples.

Results

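The let-7 family is a group of microRNAs (miRNAs, short RNAs that pair with messenger RNAs and lower their output) whose members are made from separate genes and differ in only a few bases. The members described here are rno-let-7a, rno-let-7b, rno-let-7c, rno-let-7d, rno-let-7e, rno-let-7f, rno-let-7i and rno-miR-98, written below without the prefix for rat. They were chosen by name on an array of rat miRNAs, without the other strands of the same hairpins, and are 8 of the 350 miRNAs on it. The samples came from the gracilis, a muscle of the inner thigh, and the animals were male rats of the Sprague-Dawley strain. The sham group (n = 2) had a sham operation, and the ischemia-reperfusion group (n = 2) had 4 h of ischemia followed by reperfusion, for 4 h by the sample labels and 24 h by the series text. No genetic change is labelled in either group, and the age of the animals is not given in the sources used here. Each value is the total signal of a miRNA in intensity units on a 1-colour array, and the number of arrays limits the precision.

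Mature let-7 is scarce in early embryos and plentiful in differentiated tissue, including muscle. The RNA-binding protein Lin28 blocks the processing of let-7 precursors, and the mature miRNAs repress growth genes such as Ras family members, Myc and Hmga2. A miRNA recognises its targets mainly through its seed, so members with 1 seed can bind largely the same messages. The question here was how much let-7 each muscle held, in which proportions, and whether these differed between the groups.

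The mature sequences are shown because they differ only outside the seed and in few bases, which limits what an array can tell apart. They are RefSeq's for the GRCr8 build, matched for all 8 members by name to the 5′ arm, and the capitals mark the seed (bases 2 to 8):
let-7a: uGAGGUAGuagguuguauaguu
let-7b: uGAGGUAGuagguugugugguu
let-7c: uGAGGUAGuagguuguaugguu
let-7d: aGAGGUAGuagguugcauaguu
let-7e: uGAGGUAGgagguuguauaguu
let-7f: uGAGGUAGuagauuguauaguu
let-7i: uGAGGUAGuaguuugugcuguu
miR-98: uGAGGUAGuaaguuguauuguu
Every member is 22 bases long, and 14 positions are the same in all 8. Counted from the 5′ end and against let-7a, let-7c differs by A19G, let-7e by U9G and let-7f by G12A. For let-7b the changes are A17G and A19G, for let-7d U1A and U16C, and for miR-98 G11A and A19U. The most distant member is let-7i, with G12U, A17G, U18C and A19U. Of the 292 array miRNAs that are not other-strand forms, 240 were matched to a RefSeq mature sequence, and 0 of those outside the family held this seed. Probe sequences were not analysed here, and signal that a probe takes from a near-identical member was not tested. The same limit applies to the proportions below, which are proportions of signal and not of molecules.

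The 8 members come from 11 places in GRCr8. On chromosome 17, let-7a (chr17:16320145-16320166), let-7f (chr17:16320508-16320529) and let-7d (chr17:16322273-16322294) lie on the plus strand, with 2094 bases between mature let-7a and the let-7d hairpin, inside the span of the long non-coding RNA gene LOC120097935. A further copy of let-7f (chrX:24460052-24460073) and miR-98 (chrX:24460663-24460684) lie in the span of Huwe1, a ubiquitin ligase gene. One copy of let-7c (chr7:118683636-118683657) neighbours let-7b (chr7:118684044-118684065), with 327 bases between the let-7c hairpin and mature let-7b, and no other gene of the annotation spans them. The other let-7c copy (chr11:29688127-29688148) lies 655 bases from the miR-99a gene and 44424 bases from a miR-125b gene. The second let-7a copy (chr8:50805219-50805240) lies 6845 bases from miR-100 and 44796 bases from the other miR-125b gene. The only copy of let-7e (chr1:67350243-67350264) lies 110 bases from miR-99b and 411 bases from miR-125a, within the span of Spaca6. On the minus strand, let-7i (chr7:60527935-60527956) has no other miRNA gene within 50000 bases. The gene table gives no exons, so exon or intron was not assigned. An array value for let-7a, let-7c or let-7f sums over 2 genes.

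The arrays differed in brightness, and 1 of them stood apart. Between 158 and 187 of the 350 miRNAs gave a detected signal on the sham arrays and ischemia-reperfusion array 1, against 121 on array 2 of that group. For the 78 miRNAs that every array detected, the 75th percentile of the signal was 3380, 1171 and 995 units on the first 3 and 92.0 units on the last. The label gracilis muscle was checked with 5 muscle miRNAs (miR-1, miR-133a, miR-133b, miR-206 and miR-499): 5 of 5 were detected on the first 3 arrays and 0 of 5 on ischemia-reperfusion array 2. Of 7 epithelial miRNAs, 0 were detected on either sham array, 2 on ischemia-reperfusion array 1 and 6 on array 2. Liver (miR-122) and nerve (miR-124, miR-9) markers were detected on no array. The markers of the last array thus go against its label as muscle, and whether the sample is muscle or is labelled correctly could not be settled here. Below, ischemia-reperfusion 2 and "after ischemia-reperfusion" follow the label only. The group differences of the members' scaled levels, and of the let-7c, let-7d and let-7i shares, are also given without it. Those of other strands and of miRNAs encoded near let-7 genes are given only with it. Where an array was left out, the scaling and the choice of tested miRNAs stayed those of the full set. The array left out thus still bears on the scaled levels, though not on the shares of the others.

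All 8 members were detected on 3 arrays, and 7 on ischemia-reperfusion array 2, where miR-98 was below detection. Before any scaling, the let-7a signal was 7514 units in sham 1, 1940 units in sham 2, 1614 units in ischemia-reperfusion 1 and 343 units in ischemia-reperfusion 2. The scanner software's error of these signals was 571, 146, 121 and 25.3 units. Both ischemia-reperfusion values lay under both sham values, and the values of sham 2 and ischemia-reperfusion 1 were the closest of all. The same order over the 4 arrays was seen for every member, and it follows the brightness of the arrays. In that array order, let-7f gave 9075, 1353, 1149 and 271 units. The signal of let-7b was 3767, 1070, 825 and 280 units. That of let-7i was 3109, 918, 774 and 219 units. Of these members, let-7f had the largest step between the sham arrays.

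For let-7c and let-7d the step down to ischemia-reperfusion array 2 was larger. In the same array order, the let-7c signal was 5449, 1738, 1366 and 95.9 units. For let-7d, the member with an A at its 5′ end (U1A), the signals were 3583, 733, 673 and 29.6 units. From ischemia-reperfusion array 1 to array 2, on the log2 scale, the ratio of raw signals was 4.51 for let-7d and 1.40 for let-7e, the extremes of the family. On the sham arrays and ischemia-reperfusion array 1 the dimmest members were let-7e and miR-98. In the same array order, let-7e gave 446, 122, 99.2 and 37.6 units, and miR-98 gave 288, 60.2, 47.9 and 9.15 units. The miR-98 value on the last array had a scanner error of 2.60 units, 28.5% of the signal, whereas over the 31 detected values of the family this error was 7.14 to 11.7%.

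**Figure D1:**
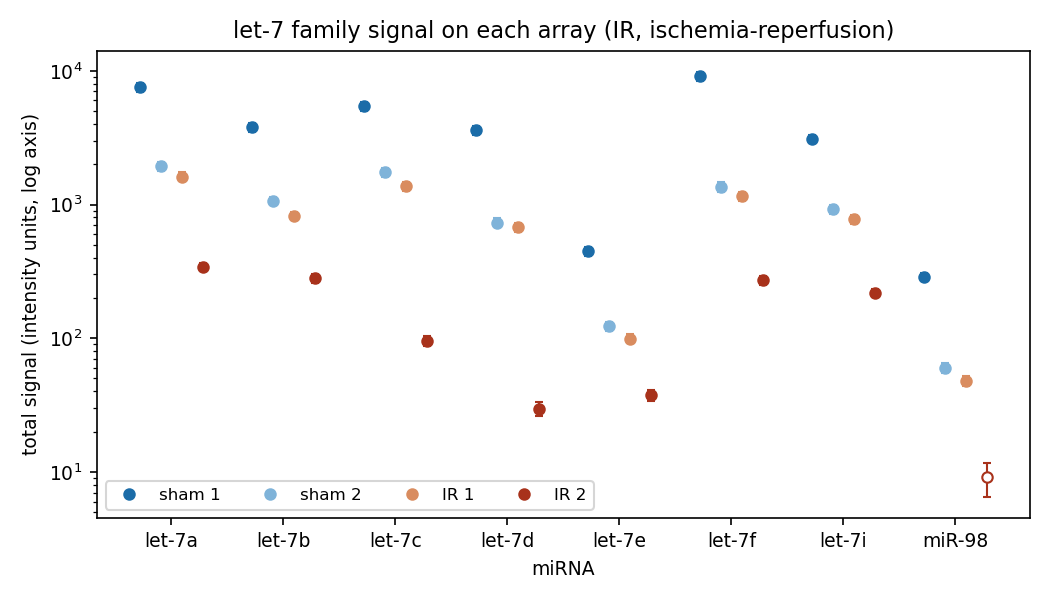
Total signal of each member on the 2 sham and 2 ischemia-reperfusion (IR) arrays, in intensity units on a log axis and before scaling. Bars are the scanner software's error, and the open point (miR-98, IR 2) was below detection. On IR 2, let-7c (95.9 units) and let-7d (29.6 units) lie farther under the other arrays than let-7a (343 units) or let-7b (280 units) do.

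To compare the groups, each signal was scaled to the 75th percentile given above for its array, and log2 was taken. None of the 8 members passed limma's test at a Benjamini-Hochberg adjusted p of 0.05 over the 159 miRNAs tested. Over all of these, 0 were called (0%), and 2 had an unadjusted p under 0.05, neither a member. The log2 difference was positive for 6 members and negative for 2, with a median of 0.21, whereas over all 159 tested miRNAs 61.6% were positive and the median was 0.45. The number of positive members depended on the scaling: it was 1 of 8 with the 75th percentile of all miRNAs, 3 with the median, 4 with quantile normalization and 0 without scaling. The 8 members were all tested, and 3 of them lay above the median of all tested miRNAs, as they did with the percentile of all miRNAs, with the median and without scaling (5 with quantile normalization).

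The positive differences were within their errors. For let-7e, the scaled log2 levels were −2.92 and −3.26 in sham muscle and −3.33 and −1.29 after ischemia-reperfusion, so the groups overlapped. Its log2 difference was 0.78 ± 1.10 (SE, n = 2 per group), with a limma adjusted p of 0.817. For let-7i the levels were −0.12 and −0.35 against −0.36 and 1.25, a difference of 0.68 ± 1.03, and for let-7b they were 0.16 and −0.13 against −0.27 and 1.60, a difference of 0.65 ± 1.07. The limma adjusted p of both was 0.817. In each of these members only ischemia-reperfusion array 2 lay above the sham arrays. Without it the differences were −0.24 for let-7e, −0.13 for let-7i and −0.28 for let-7b.

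The scaled log2 level of let-7a was 1.15 and 0.73 in sham muscle and 0.70 and 1.90 after ischemia-reperfusion, a difference of 0.36 ± 0.97 (SE, limma adjusted p = 0.885). For let-7f the levels were 1.42 and 0.21 against 0.21 and 1.56. One array of each group was high and the other low, and the difference was 0.0674 ± 1.06 (limma adjusted p = 0.985). For miR-98, whose level on ischemia-reperfusion array 2 was below detection, the levels were −3.55 and −4.28 against −4.38 and −3.33, a difference of 0.0634 ± 0.97 (limma adjusted p = 0.985). Without ischemia-reperfusion array 2 these 3 differences were −0.24, −0.61 and −0.46.

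The 2 negative differences were those of let-7c and let-7d. The scaled log2 level of let-7c was 0.69 and 0.57 in sham muscle and 0.46 and 0.0601 after ischemia-reperfusion, a difference of −0.37 ± 0.90 (SE, n = 2 per group, limma adjusted p = 0.865). It was the only member of the 8 whose groups did not overlap. Both ischemia-reperfusion arrays lay under both sham arrays for 13.2% of all tested miRNAs and above them for 11.9%, so 1 lower and 0 higher among 8 is near or under that background. For let-7d the levels were 0.0841 and −0.68 against −0.56 and −1.63, a difference of −0.80 ± 0.98 (limma adjusted p = 0.817), and the level of ischemia-reperfusion array 1 lay between the sham levels. Without ischemia-reperfusion array 2 the differences were −0.17 and −0.27, so that all 8 members then had a negative difference, with a median of −0.26. Over all 159 the median was then 0.0561, and 54.1% were positive. The 8 signs are not independent, since members share the scaling of each array. They also set 1 ischemia-reperfusion array against the mean of 2 sham arrays that differed. Every member's scaled level was higher in sham 1 than in sham 2. That of ischemia-reperfusion 1 lay nearer to sham 2 than to sham 1 for every member, and above sham 2 only for let-7d. Without ischemia-reperfusion array 1 the median of the members was 0.85, let-7c was at −0.57 and let-7d at −1.34, and over all miRNAs limma called 11, none of them in the family (lowest adjusted p of a member 0.200, that of let-7e). This fit leaves 1 ischemia-reperfusion array, the one without muscle miRNAs, and its p-values rest on the spread of the sham arrays, which the lone array is assumed to share.

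**Figure D2:**
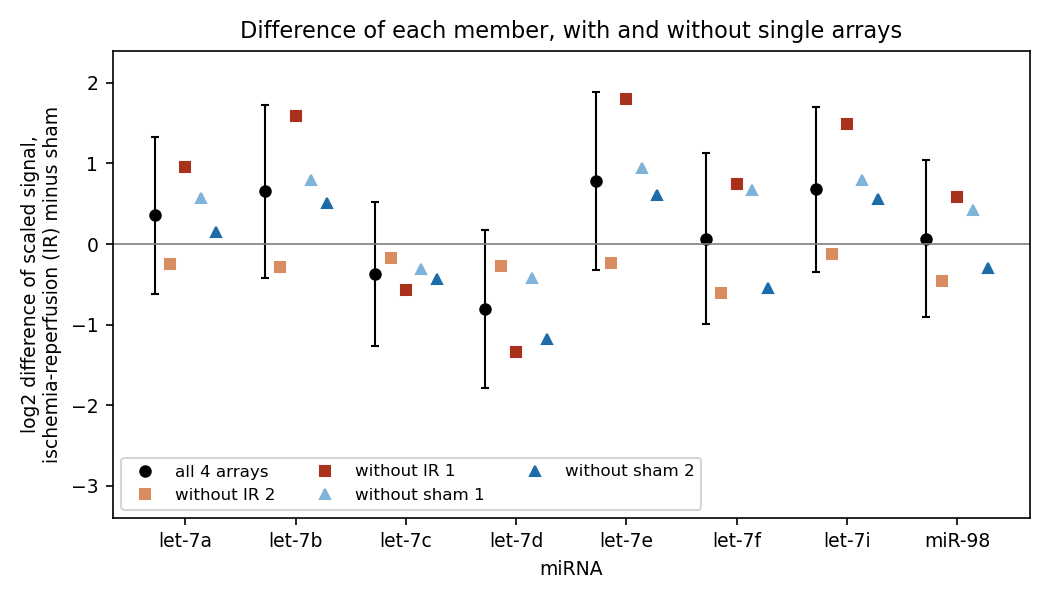
Log2 difference of the scaled signal, ischemia-reperfusion (IR) minus sham, for each member. Black points are from all 4 arrays with the SE of limma's fit, and coloured points leave out 1 array. Without IR 2 all 8 differences lie below 0, between −0.61 (let-7f) and −0.13 (let-7i), whereas 54.1% of all 159 tested miRNAs were then positive. These differences rest on 1 IR array, whose levels lay nearer to sham 2 than to the higher sham 1 for every member.

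The make-up of the family needs no scaling between arrays, since each member's signal is divided by the sum of the 8 on the same array. This sum was 33231 units on sham array 1, 7936 on sham array 2, and 6549 and 1285 on the ischemia-reperfusion arrays. The let-7a share was 22.6% and 24.5% in sham muscle and 24.7% and 26.7% after ischemia-reperfusion, the narrowest range of the brighter members. The errors of these 4 shares, propagated from the scanner errors as if independent, were 1.48 to 1.61 percentage points. miR-98 gave 0.867% and 0.759% in sham muscle and 0.732% in ischemia-reperfusion 1. On ischemia-reperfusion array 2 it was below detection (0.712%, propagated scanner error 0.203 points), so its proportion there is not measured.

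On ischemia-reperfusion array 2 the family had other proportions. The let-7d share was 10.8% and 9.24% in sham muscle and 10.3% in ischemia-reperfusion 1, but 2.31% in ischemia-reperfusion 2 (propagated scanner error 0.275 points), or 0.230 of the sham mean. The let-7c share was 16.4% and 21.9% in sham muscle, 20.9% in ischemia-reperfusion 1 and 7.46% in ischemia-reperfusion 2, or 0.390 of the sham mean. Both shares lay under those of the other 3 arrays by more than the propagated scanner errors.

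The shares of let-7b, let-7i and let-7e were at their highest on that array. The let-7b share was 11.3%, 13.5% and 12.6% on the first 3 arrays and 21.8% on the last, and that of let-7i was 9.36%, 11.6%, 11.8% and 17.0%. The let-7e share was 1.34%, 1.54%, 1.52% and 2.92%, or 2.03 times the sham mean on the last. In contrast, in ischemia-reperfusion 1 the shares of all 8 members were 0.791 (let-7f) to 1.13 times (let-7i) the sham mean. The let-7f share singled out a sham array instead: it was 27.3% in sham 1, 17.1% in sham 2 and 17.5% and 21.1% after ischemia-reperfusion.

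**Figure D3:**
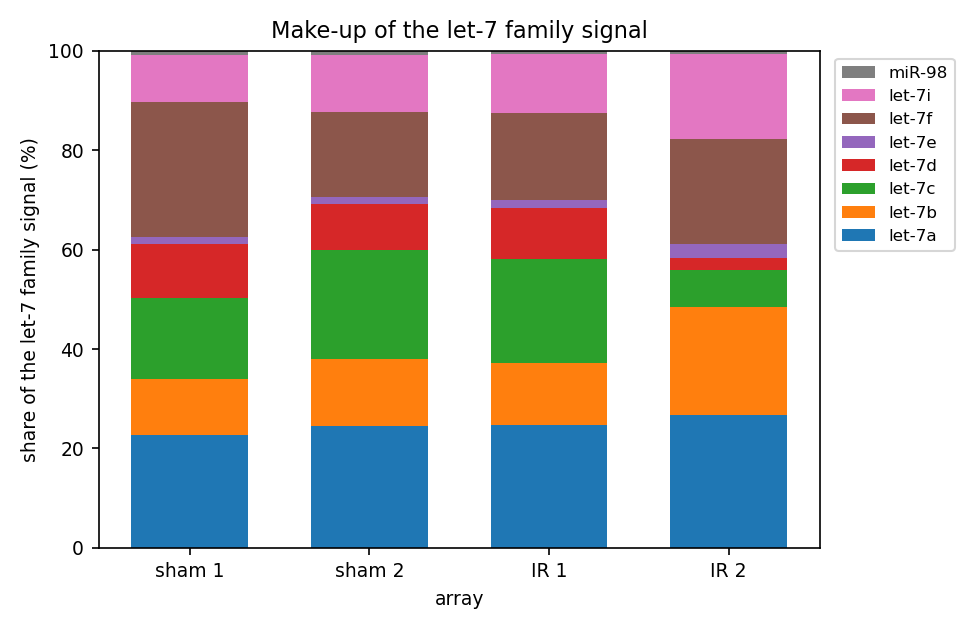
Share of each member in the summed signal of the 8 members on each array, in percent. Sham 2 and ischemia-reperfusion (IR) 1 have nearly the same make-up, sham 1 has more let-7f (27.3%), and IR 2 has less let-7c (7.46%) and let-7d (2.31%) and more let-7b (21.8%).

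Compared between the groups, 3 of the 8 shares did not overlap. The shares of let-7a and let-7i were higher on both ischemia-reperfusion arrays. The share of miR-98 was lower, but on ischemia-reperfusion array 2 it rests on a signal below detection and is not a measured difference. Among the 159 tested miRNAs, the signal relative to the let-7 sum was higher without overlap for 13.8% and lower for 5.03%. For each of the 3 members, the gap between the nearest arrays of the groups was smaller than the propagated scanner error: for let-7i it lay between 11.6% and 11.8%, each with an error of 0.813 to 0.829 points. The mean shares were 10.5% ± 1.57 (SD, n = 2) and 14.4% ± 3.69 for let-7i, and 10.0% ± 1.09 and 6.29% ± 5.64 for let-7d. The difference of the mean shares was 3.96 points for let-7i, −3.72 points for let-7d and −4.99 points for let-7c. Without ischemia-reperfusion array 2 it was 1.35 points for let-7i and turned to 0.266 points for let-7d and 1.71 points for let-7c. An exact two-sided permutation test of a share gave p = 0.333 for let-7a, let-7i and miR-98, which is the smallest p that 2 against 2 arrays allow. It gave 0.667 for let-7b, let-7c, let-7d and let-7e and 1 for let-7f (exact permutation). No change of any share with ischemia-reperfusion was thus detectable in this design.

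Pairs of arrays were then compared by the percentage points of family signal that would have to move between members to turn one make-up into the other. The distance was 1.98 points between sham 2 and ischemia-reperfusion 1, a pair from different groups. The largest difference of a share in this pair was 1.04 points, for let-7c, under the propagated scanner error of either value (1.44 and 1.38 points). Between the sham arrays the distance was 11.9 points, and between the ischemia-reperfusion arrays it was 21.4 points. Ischemia-reperfusion 2 was 23.8 points from sham 1 and 21.4 points from sham 2. The replicates of a group were therefore farther apart than this pair across groups, and the mean distance between groups was smaller than that within groups by 2.26 points (a value of −2.26). Without ischemia-reperfusion array 1 the sign turned, to 10.7 points. It stayed negative without ischemia-reperfusion array 2 (−5.72 points), without sham array 1 (−9.69 points) and without sham array 2 (−4.31 points).

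Signal ratios between 2 arrays spread less over the members than over all miRNAs that every array detected. The SD of the log2 signal ratios between sham 2 and ischemia-reperfusion 1 was 0.0795 over the 8 members, and the median scanner error of such a ratio was 0.15. Over the 78 miRNAs detected on all arrays, 7 of them members, the SD was 0.22. Between the sham arrays the SD was 0.36 over the members and 1.53 over the 78, and between sham 1 and ischemia-reperfusion 2 it was 1.15 and 2.10. In all 6 pairs of arrays the SD over members was the smaller. This is a description, since members share much of their sequence, and the 78 were not matched to them in brightness.

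**Figure D4:**
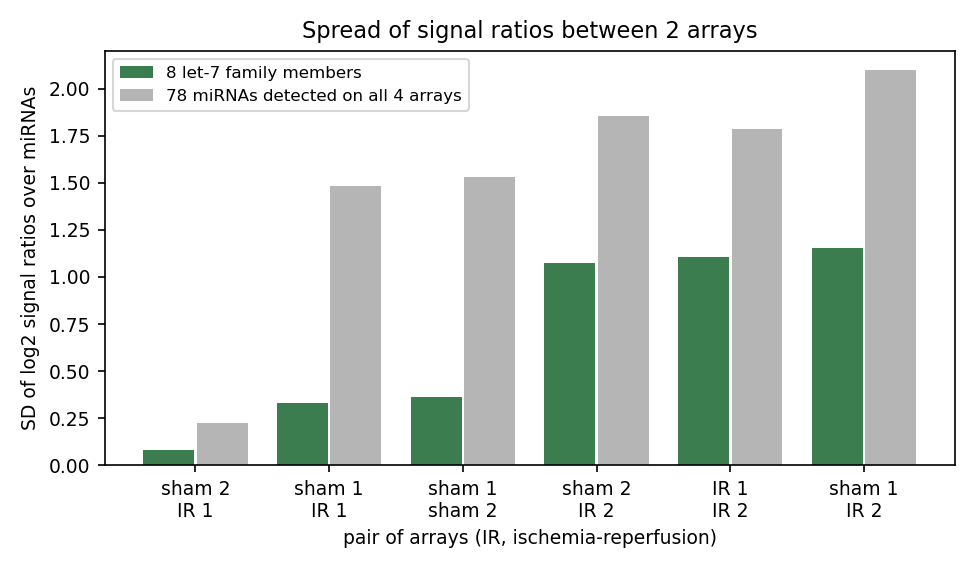
SD of the log2 signal ratios between 2 arrays, over the 8 members (green) and over the 78 miRNAs detected on all 4 arrays (grey), for each of the 6 pairs of sham and ischemia-reperfusion (IR) arrays. The members' SD runs from 0.0795 (sham 2 with IR 1) to 1.15 (sham 1 with IR 2), and the 3 pairs with IR 2 have the highest values.

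The difference in make-up on ischemia-reperfusion array 2 went along with the marker lists. The summed scaled signal of the 5 muscle miRNAs was 62.7 and 96.6 in sham muscle, 91.1 in ischemia-reperfusion 1 and 0.126 in ischemia-reperfusion 2. That of the 7 epithelial miRNAs was 0.000468 and 0.0139 in sham muscle and 0.352 and 6.32 after ischemia-reperfusion. The part of this difference in tissue content in the let-7 make-up was not tested. Sham 1, the array with the high let-7f share, also had the highest scaled level of the endothelial miR-126, 1.26 against 0.196 to 0.381 on the other arrays. Its summed level of the 4 leukocyte miRNAs was the lowest, 0.286 against 0.359 to 4.23. Single leukocyte miRNAs did not all follow: 3 of the 4 were detected in sham 1 and 2 in ischemia-reperfusion 2. The scaled log2 level of miR-150 was −2.62 in sham 1 and −2.63 in sham 2, and it was below detection in ischemia-reperfusion 2. The 2 red-cell miRNAs (miR-451 and miR-144) had summed levels of 0.402 and 0.737 in sham muscle and 1.29 and 2.88 after ischemia-reperfusion, with miR-144 below detection on the last array. The sum follows miR-451, with scaled log2 levels of −1.52 and −0.72 against 0.19 and 1.52. The log2 difference of miR-144 was negative (−0.80). Of all tested miRNAs, 11.9% were higher without overlap. The part of these cell types was not tested either. In a bulk sample, fewer cells of a type and less let-7 per cell cannot be told apart.

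As a portion of the whole array, the family gave 8.43% and 4.31% of the summed signal in sham muscle and 4.46% and 11.0% after ischemia-reperfusion, with 1 high and 1 low array in each group. The muscle miRNAs took 53.8 to 61.7% of the signal on the first 3 arrays and 0.0997% on ischemia-reperfusion array 2. With these 5 left out of the sum, the family gave 18.3% and 11.1% in sham muscle and 11.6% and 11.1% after ischemia-reperfusion. On that footing sham 1 was high and the other 3 arrays lay between 11.1% and 11.6%. On ischemia-reperfusion array 2, however, the sum still held that array's brightest miRNA, miR-21, with 33.5% of the summed signal. The closeness of the 3 values thus depends on which miRNAs are left out, and a sum without miR-21 was not taken.

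Members were also compared with each other, by the SD over the 4 arrays of the log2 ratio of their signals. The closest pair was let-7b and let-7e (SD 0.0993), from different chromosomes, followed by let-7b and let-7i (0.11). The least alike were let-7d and let-7e (1.57). Without ischemia-reperfusion array 2, let-7b and let-7e were still the closest pair (0.0362), but let-7d and let-7e had an SD of only 0.21. The least alike were then let-7c and let-7f (0.60), so the ranking over the 4 arrays leans on that array. Over the 4 arrays, pairs with neighbouring genes were spread over the range from closest to least alike. The pair let-7b and let-7c, with genes beside each other on chromosome 7 and 1 base of difference, had an SD of 1.10. The pair let-7a and let-7d from the cluster on chromosome 17 had 1.15. Without ischemia-reperfusion array 2 these SDs were 0.11 and 0.17. let-7f and miR-98, neighbours on the X chromosome, had an SD of 0.24, and of 0.26 without ischemia-reperfusion array 2, where miR-98 was below detection. Over the 28 pairs, those with miR-98 included, the SD over the 4 arrays and the number of base differences had a Pearson r of 0.12 and a Spearman rho of 0.0133. This is across pairs that share members and arrays, and it was not taken without ischemia-reperfusion array 2.

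The genomic neighbours of let-7 genes gave a similar picture. None of the 5 (miR-99a, miR-99b, miR-100, miR-125a-5p and miR-125b-5p) passed limma's test, with adjusted p of 0.817 to 0.822. miR-99a, which is encoded beside let-7c on chromosome 11, gave 2488, 547, 462 and 25.7 units in the array order used above. Relative to the let-7 sum this was 7.49%, 6.89%, 7.05% and 2.00%, so that on ischemia-reperfusion array 2 it was low, as was the let-7c share. Its scaled log2 difference was −0.71 ± 0.94 (SE, n = 2 per group), the only negative one of the 5.

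The neighbours of let-7e and of the second let-7a copy were relatively bright on that array. miR-125a-5p, beside let-7e on chromosome 1, gave 140, 31.8, 28.9 and 42.8 units, or 0.422%, 0.401%, 0.441% and 3.33% of the let-7 sum. It was the only one of the 5 whose raw signal was not lowest on ischemia-reperfusion array 2. miR-100 gave 394, 94.7, 75.1 and 45.9 units, or 1.19%, 1.19%, 1.15% and 3.57% of the let-7 sum. For miR-125b-5p, whose 2 genes lie in the let-7c and let-7a clusters, the relative signal was 9.32%, 10.6%, 10.8% and 15.1%. miR-99b was below detection on ischemia-reperfusion array 2 (5.72 units), so its proportion there is not measured. On the first 3 arrays the relative signals of miR-99a, miR-100, miR-125a-5p and miR-125b-5p varied less than between these arrays and ischemia-reperfusion array 2, which lay outside their range for all 4.

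**Figure D5:**
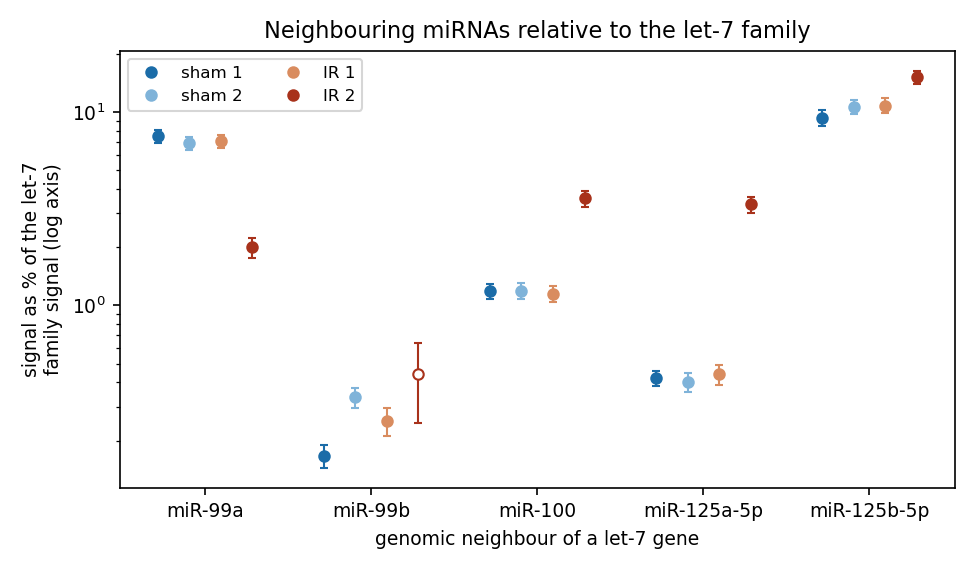
Signal of 5 miRNAs encoded near let-7 genes, as a percent of the let-7 family signal on the same array (log axis), with the scanner error of the neighbour. The open point (miR-99b, IR 2) was below detection. On ischemia-reperfusion array 2 (IR 2), miR-99a is low (2.00%), and miR-100 (3.57%) and miR-125a-5p (3.33%) are high.

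The other strands of let-7 hairpins, which are usually degraded, were dim. The array held 4 of them. In the same order, let-7d* gave 72.9, 8.05, 7.88 and 4.38 units, and only the last was below detection. let-7b* was detected in sham 1 (43.0 units) and in ischemia-reperfusion 2 (11.5 units), while sham 2 (6.20 units) and ischemia-reperfusion 1 (2.73 units) were below detection. let-7i* was detected in ischemia-reperfusion 2 only (4.40 units, scanner error 2.04), and let-7e* on no array. Of these, let-7d* alone could be tested, and it differed by 0.67 ± 1.32 on the log2 scale (SE, n = 2 per group, limma adjusted p = 0.841). Its scaled log2 levels were −5.54 and −7.18 in sham muscle and −6.98 and −4.39 after ischemia-reperfusion. The positive difference thus rests on the last array, where let-7d* was below detection.

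Among the 71 miRNAs outside the family that were detected on all 4 arrays, those with the steadiest ratio to the let-7 sum were miR-23b (SD of the log2 ratio over 4 arrays 0.21), miR-125b-5p (0.30), miR-212 (0.31), miR-151 (0.34) and miR-23a (0.38). The median SD of the 71 was 0.88. Of the 7 members detected on all arrays, let-7a (0.0976), itself a large part of the sum, followed it most closely and let-7d (1.07) least, with let-7c at 0.72. The value of miR-98 (0.13) includes its signal below detection.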

How the data were processed

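Per the labels' protocols, a miRNA kit was used to extract total RNA, which then received the dye Cy3. The submitters' processing notes name Agilent Feature Extraction, version 9.5.3. The deposited intensity values are, per the file headers, the total signal of each miRNA and its error, beside a detection flag. They are linear and not scaled between arrays. The deposited value table held the same intensities (0 of 1400 values differed, tolerance 0).

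Control features (22) were left out, and 1 miRNA named with a version suffix in 1 file was renamed. Signals were scaled to the 75th percentile of the 78 miRNAs that all 4 arrays detected, floored at the lowest scaled detected signal (log2 −9.32) and log2 transformed. The 159 miRNAs detected on both arrays of a group were tested (two-sided) with R 4.3.3 and its package limma 3.58.1, and p-values were adjusted by the method of Benjamini and Hochberg. The fit was tested on simulated data in which all miRNAs and arrays of a run had the same spread. This does not show how it performs on arrays as unlike as these. Shares used unscaled signals. Groups come from the titles. The series text calls all replicates biological, but the labels call those after ischemia-reperfusion experimental, so p-values measure the spread between these samples, which may be partly technical. All 8 members, the 5 neighbours, the other strands, the 5 most similar miRNAs and the marker lists were named by rule. The members and lists were chosen with earlier results of these data known.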

Additional observations from a re-analysis of the deposited data

How the results depend on the processing

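No member passed limma's threshold under any alternative run, and the lowest adjusted p of a member was 0.200, without ischemia-reperfusion replicate 1. The count of all miRNAs called was 0, except 2 without scaling and, without single arrays, 0 to 11 (the 11 without ischemia-reperfusion replicate 1). Where an array was left out, the lone array of its group is assumed to vary like the other group. The median difference of the members (0.21) was −0.56 with the 75th percentile of all miRNAs, −0.34 with the median scaling and −2.50 without scaling, where the median of all tested miRNAs was −0.31, −0.0951 and −2.18. Without single arrays it ran from −0.26 to 0.85. The replicate number as a block left it at 0.21 and called 0 miRNAs. The numbers were not taken as pairs. Deviations of same-numbered samples from their group means had a correlation of 0.0973 over 159 miRNAs. With 2 arrays per group the crossed pairing gives −0.0973 by construction, so this value cannot tell whether samples were paired. The log2 differences of let-7c and let-7d stayed negative in every run, at −0.17 and −0.27 without ischemia-reperfusion replicate 2. Their share differences turned positive without that array (1.71 and 0.266 points). Other members turned negative. With the 75th percentile of all miRNAs these were let-7a (−0.41), let-7b (−0.11), let-7f (−0.70), let-7i (−0.0883) and miR-98 (−0.70). With the median scaling they were let-7a (−0.19), let-7f (−0.48) and miR-98 (−0.49). With quantile normalization they were let-7f (−0.0384) and miR-98 (−0.66), and relative to the family signal let-7f (−0.17) and miR-98 (−0.17). Without scaling they were let-7a (−2.36), let-7b (−2.06), let-7e (−1.94), let-7f (−2.65), let-7i (−2.04) and miR-98 (−2.65). Without single arrays the ranges were −0.24 to 0.96 for let-7a, −0.28 to 1.59 for let-7b, −0.24 to 1.80 for let-7e, −0.61 to 0.74 for let-7f, −0.13 to 1.49 for let-7i and −0.46 to 0.59 for miR-98. The cause was not tested.

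The number of shares without overlap (3) ran from 3 to 7 without single arrays, where a group of 1 array overlaps less easily. The difference of distances between and within groups ran from −9.69 to 10.7 points. The family's share of the array total was higher after ischemia-reperfusion by 1.38 points, but differed by −3.35 points without the muscle miRNAs in the total and by −3.05 points with the total of the 78 miRNAs that every array detected. It differed by −1.91 to 4.68 points without single arrays. Signal over background limits miR-98 on ischemia-reperfusion array 2.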
